A study of Bos taurus with 54 samples.

Results

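GPR174, P2RY10, GPR34, GPR183, GPR18 and GPR171 are 6 genes for G protein-coupled receptors of the P2Y-like branch, 5 of which have lipids as known or proposed ligands. They were picked by symbol from the 32637 genes counted in calf blood, with their heat stress response already known, so that response is given below as values and nothing is read from its calls. Whole blood was taken from 15 Holstein male calves kept in climate-controlled rooms, in the morning before heat exposure (thermoneutral control) and in the evening right after 12 h of heat exposure (heat stress). The labels name no other treatment, and the calves' age was not given in the sources used here. Red blood cells were lysed before RNA extraction, so the RNA came from what was left of the blood, mostly white cells and platelets. RNA of these calves went into the Takara SMART-Seq v4 3′ DE and the Lexogen QuantSeq 3′ kits, both of which read the 3′ ends of polyadenylated transcripts, and each kit gave 27 libraries (54 in all), 13 of control and 14 labelled heat stress. The only RNA sample of animal 20 is labelled heat stress while the study's sample table lists a calf with a control sample alone, so its 2 libraries were left out and 13 of each time per kit were compared. All heat stress samples were taken in the evening and all controls in the morning, so heat and time of day cannot be told apart.

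Receptors of this kind read small molecules outside a lymphocyte or myeloid cell and pass the signal to G proteins, which change cyclic AMP or the actin skeleton and so set how a cell moves and how easily it is activated. GPR174, P2RY10 and GPR34 respond to lysophosphatidylserine, a phospholipid that has lost a fatty acid chain. GPR174 acts mainly through the stimulatory G protein and restrains T and B cells, P2RY10 supports lymphocyte migration, and GPR34 is best known from microglia and other innate immune cells. GPR183, also called EBI2, follows oxysterols made from cholesterol and positions B cells, T cells and dendritic cells in lymphoid organs. GPR18 is an orphan receptor of lymphocytes and other white cells with lipid amides and resolvins among its proposed ligands, and GPR171 is an orphan of T cells and brain whose proposed ligand is the peptide BigLEN, not a lipid.

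The 6 genes form 2 neighbour pairs and 2 single genes in the ARS-UCD2.0 assembly, the build to which the reads were mapped. GPR174 lies on chromosome X from 73131985 to 73171533 and P2RY10 on the same chromosome from 73327067 to 73345776, 155533 bases further on with 2 uncharacterised genes between them. GPR18 (chromosome 12, 76118022 to 76126013) and GPR183 (chromosome 12, 76165181 to 76180089) are 39167 bases apart with 0 annotated genes between, and both lie within the span of UBAC2. GPR34 (chromosome X, 101924155 to 101933297) lies within the span of CASK. GPR171 (chromosome 1, 116891760 to 116898287) lies within that of MED12L, which also holds purinergic receptor genes. The counts used here add the reads of both strands, so reads of a receptor gene and reads from the opposite strand at the same place enter the same value.

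Gene counts per library ranged from 5140595 to 20699030 in Takara, with medians of 11217979 in control and 11695049 in heat stress. In Lexogen they ranged from 4516761 to 58521751, with medians of 10280581 and 9571649, and the highest was the heat stress library of animal 15. The defining markers of T, B, NK, myeloid cells and platelets were detected in both kits and counts from mixed blood do not tell which cell type held a receptor's RNA. The sample numbers form 2 runs of calves, run 1 with lower numbers and run 2 with higher ones, and values are given within runs where the main results rest on them. Levels below are counts scaled to a common library size (CPM) with the trimmed mean of M values (TMM) within a kit, and changes per calf are differences of log2(CPM + 0.5) over the 12 calves of a kit with both times. That scale understates changes of genes near 0.

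GPR174 was lower after heat in nearly every calf and in both kits. Its Takara level was 49.3 CPM at the lowest, 106 at the median and 204 at the highest of 13 control libraries, and 41.8, 60.6 and 97.1 CPM in heat stress. All 13 heat stress libraries lay below the control median and 4 lay below the lowest control library, while the groups overlapped in the lower part of the control range. In Lexogen it was 147, 516 and 1022 CPM in control and 135, 284.4 and 524 CPM in heat stress, with 12 of 13 heat stress libraries below the control median and again an overlap. The spread of the Takara libraries was narrower in heat stress (64.3 CPM ± 17.4, SD, n = 13) than in control (108 ± 46.7, SD, n = 13).

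The fitted log2 fold change of GPR174, heat stress over control, was -0.75 (SE 0.19, 95% interval -1.15 to -0.35) in Takara and -0.76 (SE 0.24, 95% interval -1.24 to -0.28) in Lexogen. On the linear scale this is 0.595 and 0.589 of the control level. Within calves the level was lower in heat in 12 of 12 Takara pairs, with a median log2 change of -0.66, and in 11 of 12 Lexogen pairs, with a median of -0.74. Of all genes tested, 1.21% were lower in every Takara pair and 1.93% in at least 11 Lexogen pairs. Animal 36 had the most negative change in both kits, -1.80 in Takara and -2.03 in Lexogen, and it also had the highest control level in both. The smallest changes were -0.15 in animal 12 in Takara and 0.02 in animal 3 in Lexogen.

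**Figure D1:**
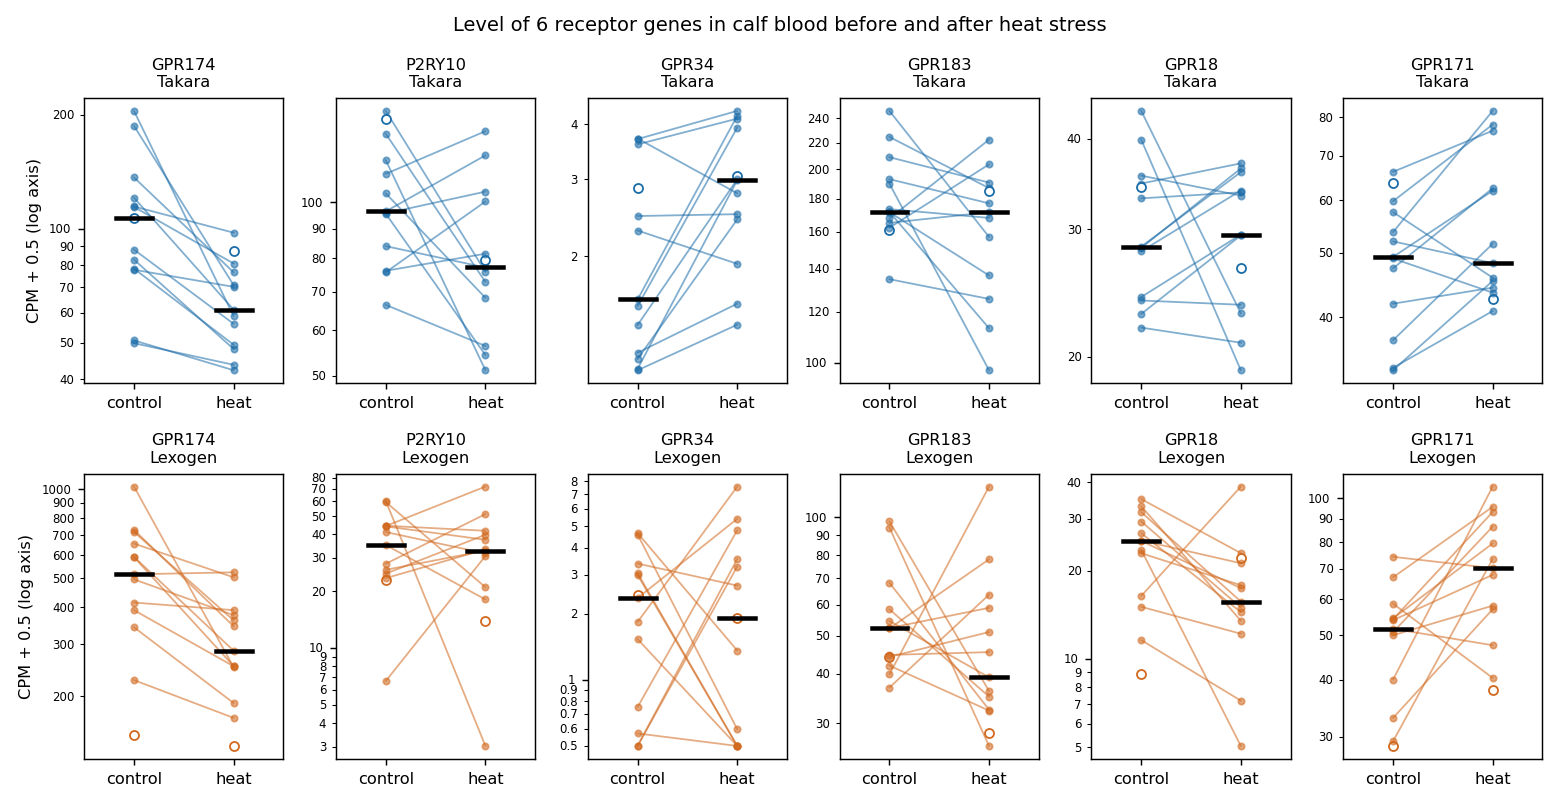
Level of each receptor gene in every library (CPM + 0.5, log axis), control and heat stress, Takara in the upper and Lexogen in the lower row. Lines join the libraries of 1 calf, open circles are calves with 1 of the times only, and black bars are group medians. Reads of both strands are counted. GPR174 lines slope down in 12 of 12 Takara and 11 of 12 Lexogen calves, and GPR18 lines slope down in 11 of 12 Lexogen and 5 of 12 Takara calves.

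P2RY10, the neighbour of GPR174 that shares its ligand, varied more between calves than between times. Its Takara level was 65.9, 95.9 and 143 CPM (lowest, median, highest) in control and 50.7, 76.5 and 132 CPM in heat stress. Its Lexogen level was 6.19, 34.6 and 59.7 CPM in control and 2.53, 32.3 and 71.2 CPM in heat stress. The groups overlapped almost fully in Lexogen, and 3 Takara heat stress libraries lay below every control. The fitted log2 fold change was -0.32 (SE 0.15) in Takara and -0.11 (SE 0.32) in Lexogen, with a lower level in 7 of 12 and 6 of 12 pairs. The Lexogen pairs ran from -4.31 in animal 18 to 2.20 in animal 14, where the lowest libraries hold 10 reads in heat stress and 37 in control.

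GPR34 was counted near the limit of detection. Its control level was 0.601, 1.10 and 3.22 CPM in Takara and 0, 1.86 and 4.15 CPM in Lexogen, and its heat stress level was 0.898, 2.49 and 3.80 CPM in Takara and 0, 1.41 and 7.08 CPM in Lexogen. It had 0 counts in 2 Lexogen control and 4 Lexogen heat stress libraries, where 3 counts, the upper limit that a count of 0 allows, correspond to at most 0.502 and 0.758 CPM. In Takara 10 of 12 pairs were higher in heat (log2 fold change 0.55, SE 0.30), but with total counts as library size 5 of 12 were lower in place of 2. In Lexogen 7 of 12 pairs were lower while the fitted log2 fold change was 0.23 (SE 0.84), so the sign of the fit and of most pairs differed.

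GPR183 had nearly the same median before and after heat in Takara. The level was 134, 171 and 246 CPM in control and 96.9, 171 and 222 CPM in heat stress, with the heat stress libraries reaching lower. In Lexogen it was 36.5, 51.7 and 97.0 CPM in control and 25.8, 38.7 and 118.97 CPM in heat stress, and 6 of 13 heat stress libraries lay below the lowest control. The fitted log2 fold changes were -0.15 (SE 0.12) and -0.18 (SE 0.23), and 9 of 12 Takara and 6 of 12 Lexogen pairs were lower in heat. Calves differed in direction, from -1.84 in animal 16 to 1.58 in animal 32 in Lexogen.

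GPR18, the chromosome 12 neighbour of GPR183, gave unlike values in the kits. Takara levels were 21.4, 27.9 and 43.2 CPM in control and 18.6, 28.99 and 36.5 CPM in heat stress, with 5 of 12 pairs lower and a log2 fold change of -0.06 (SE 0.13). Lexogen levels were 8.41, 24.7 and 34.6 CPM in control and 4.55, 15.2 and 38.2 CPM in heat stress, with 11 of 12 pairs lower and a log2 fold change of -0.46 (SE 0.29). Animal 32 was the exception in Lexogen, with a change of 1.24. These counts add both strands, and the Lexogen level was lower in 9 of 12 pairs on sense reads and in 10 of 12 on antisense reads.

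GPR171 was higher in heat stress in most calves of both kits when reads of both strands were counted. Takara levels were 32.8, 48.8 and 65.7 CPM in control and 40.4, 47.7 and 81.2 CPM in heat stress, and Lexogen levels were 28.1, 51.2 and 73.9 CPM in control and 37.4, 69.7 and 105 CPM in heat stress. The log2 fold change was 0.17 (SE 0.14) in Takara and 0.50 (SE 0.19) in Lexogen, with 9 of 12 pairs higher in each kit. Its Takara sign turned to -0.03 with total counts as library size and to -0.02 on sense reads alone, and the Lexogen change was 0.14 on sense reads.

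At an adjusted p under 0.05 in the edgeR fit over all genes, 1 of the 6 genes passed in each kit, GPR174 both times, where 28.9% of all genes tested passed in Takara and 5.55% in Lexogen. The genes lower in heat made up 10.5% of those tested in Takara and 0.459% in Lexogen. The genes were chosen on this contrast, so nothing is read from these counts. In Lexogen GPR174 no longer passed without the heat stress library of animal 15 (log2 fold change -0.71) or with total counts as library size. With animal 20 counted as control it passed in neither kit (-0.67 in both). It passed in neither kit within 1 run alone, where the log2 fold change was -0.47 in run 1 and -0.98 in run 2 for Takara and -0.76 and -0.67 for Lexogen. The median log2 fold change of all genes was -0.05 in Takara and -0.08 in Lexogen, and -0.27 and -0.14 with total counts as library size, where GPR174 stood at -0.91 and -0.79. That scaling also turned the Takara split of all genes that passed from 2325 higher and 1321 lower to 1303 higher and 2185 lower.

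**Figure D2:**
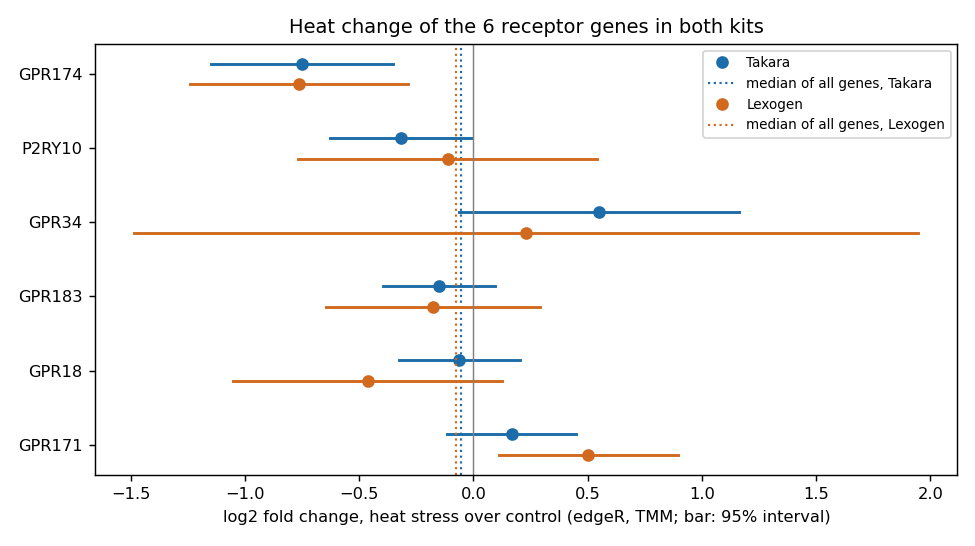
Fitted log2 fold change of each receptor gene, heat stress over control (points), with 95% intervals (bars), in Takara and Lexogen. The dotted lines mark the medians of all genes. GPR174 sits at -0.75 and -0.76, and the other 5 genes lie between -0.46 and 0.55.

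The summed RNA of T cell markers was lower after heat in most calves. Levels are relative to the rest of a library. In bulk blood, fewer cells of a type, less RNA per cell and more RNA from other cells cannot be told apart. The summed level of 16 T cell markers was 1742 to 3284 CPM in Takara control (median 2131) and 1095 to 2531 CPM in heat stress (median 1596), and was lower in heat in 11 of 12 pairs. In Lexogen it was 906 to 2009 CPM in control (median 1162) and 543 to 2043 CPM in heat stress (median 932), lower in 9 of 12 pairs. Of these markers, 9 of 16 tested fell in Takara and 0 rose, among them BCL11B, a T cell transcription factor (-0.91), TCF7 (-0.63) and CD3E of the T cell receptor complex (-0.55). In Lexogen 0 of 15 passed in edgeR, 3 were lower at an unadjusted p under 0.05, and DESeq2 also called 0.

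The summed B cell markers had medians of 931 CPM in control and 686 CPM in heat stress in Takara (range 636 to 1064 and 276 to 1083) and 566 and 449 CPM in Lexogen (377 to 865 and 136 to 716). They were lower in 7 of 12 and 9 of 12 pairs, and 1 of 9 markers, the kinase gene BLK, fell in Takara. With calf as a block 3 of the 9 fell in Takara, while 0 passed in edgeR without a filter on low counts (3 lower at an unadjusted p under 0.05) or with total counts as library size (4 lower). In Lexogen 0 of 9 passed in edgeR or DESeq2, and 0 had an unadjusted p under 0.05 in edgeR. Neutrophil markers moved the other way, from a median sum of 11478 CPM (4269 to 19686) to 42299 CPM (3719 to 108997) in Takara and from 3577 CPM (1180 to 6938) to 10448 CPM (1626 to 32495) in Lexogen, with 6 of 7 and 5 of 7 markers rising. S100A12 made up the largest part of the Takara sum, with means of 6175 CPM in control and 30252 CPM in heat stress. CSF3R was the marker that did not pass in Takara (0.51, SE 0.27). With calf as a block 0 of 7 neutrophil markers passed in Lexogen in edgeR, all 7 being higher at an unadjusted p under 0.05. NK cell markers had median sums of 176 CPM in control and 208 CPM in heat stress in Takara and of 63.9 and 98.6 CPM in Lexogen, higher in heat in 10 of 12 and 9 of 12 pairs. Of 7 NK cell markers 1 rose in each kit, the activating receptor gene NCR1 (1.20, SE 0.24, and 1.55, SE 0.45). In each kit 3 of the 7 had a log2 fold change below 0, the lowest being -0.32 in Takara and -0.85 in Lexogen. The median of the 7 was 0.19 in Takara and 0.39 in Lexogen, and -0.23 in Lexogen with calf as a block. In Lexogen 0 of the 7 passed in edgeR with calf as a block (1 higher at an unadjusted p under 0.05) or without the heat stress library of animal 15 (2 higher). None of the markers present in the count tables was at 0 over all compared libraries of a kit.

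The change of GPR174 lay below that of the T cell markers in some calves and above it in others. The mean log2 change of GPR174 was -0.70 in Takara and -0.76 in Lexogen. That of the median T cell marker was -0.42 and -0.54. The median log2 change of the T cell markers was -0.48 in Takara and -0.47 in Lexogen, negative in 11 of 12 calves in each kit. The change of GPR174 minus that median was -0.13 at the median calf in Takara (range -1.32 to 0.36, below 0 in 9 of 12 calves) and -0.07 in Lexogen (-1.13 to 0.62, 7 of 12). In animal 14 the Takara log2 change was -1.40 for GPR174 and -0.07 for the median T cell marker. The same difference was 0.04 and 0.73 for P2RY10, 0.98 and 0.27 for GPR34, 0.16 and 0.41 for GPR183, 0.24 and -0.14 for GPR18, in Takara and Lexogen in turn. GPR171 stood above the T cell markers in 11 of 12 Takara and 10 of 12 Lexogen calves, with medians of 0.68 and 1.06. Reads of both strands are counted here. The antisense share of GPR171 reads went from 5.29% in control to 15.1% in heat stress in Takara and from 7.62% to 33.1% in Lexogen. The difference to the T cell markers was not taken on sense reads alone. These differences within a pair of libraries hardly depend on library size, and the part of cell composition in the receptor values was not tested.

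**Figure D3:**
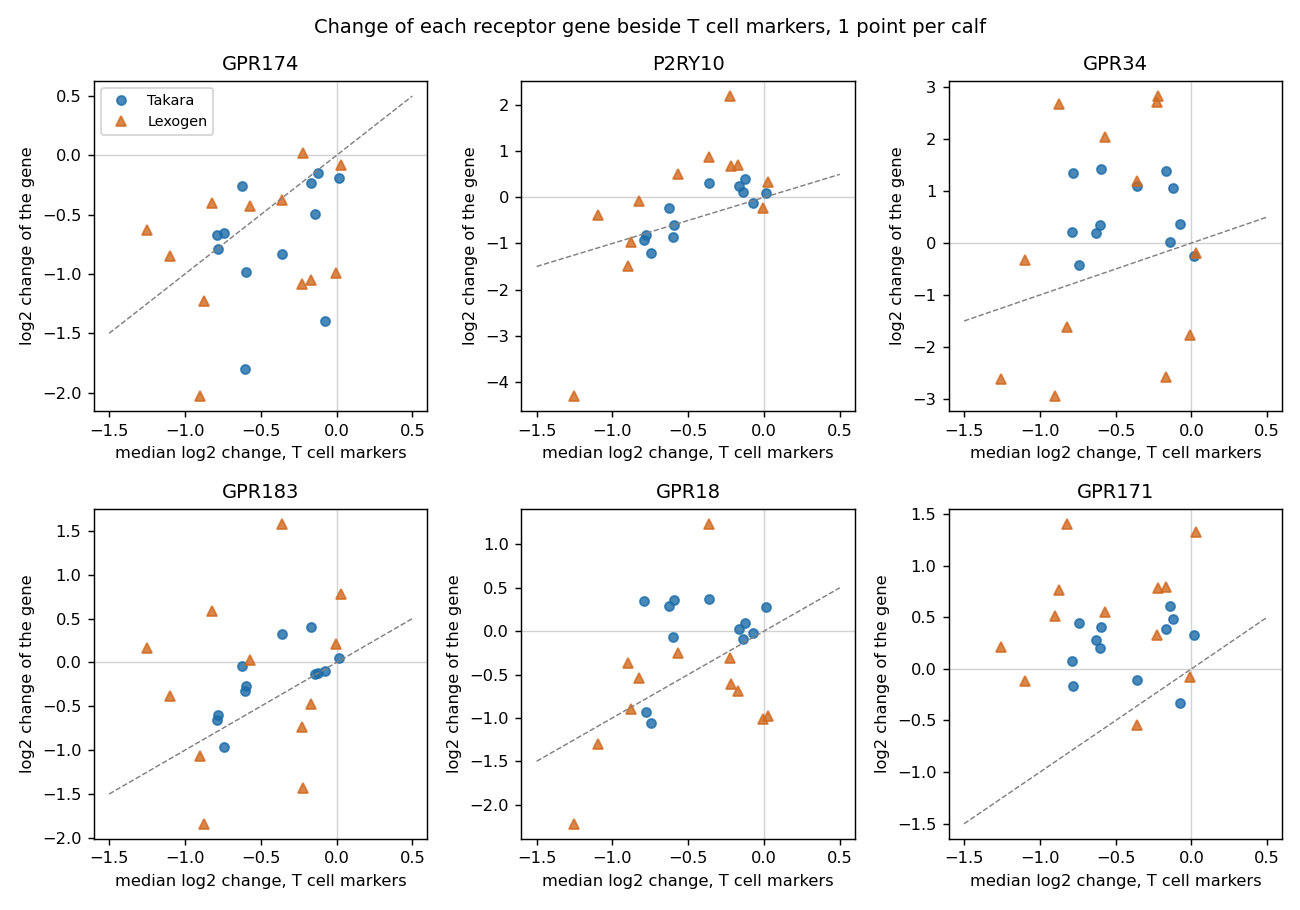
Change of each receptor gene in a calf (vertical axis, log2) against the median change of the T cell markers in that calf (horizontal axis, log2), 12 calves per kit. Circles are Takara, triangles Lexogen, and the dashed line marks equal change. Reads of both strands are counted. GPR174 points fall on both sides of the line with medians of 0.13 and 0.07 log2 units below it, and most GPR171 points lie above it.

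Sense and antisense reads were compared after the strand shares had been seen. Antisense reads made up 1.87% of GPR174 reads in Takara and 0.049% in Lexogen, and 0.481% and 0% of P2RY10 reads, against 5.06% and 5.50% over all genes. The genes inside UBAC2 and MED12L held more in Lexogen, with 17.5% for GPR183, 36.98% for GPR18 and 22.8% for GPR171, while Takara gave 0.892%, 5.29% and 10.1%. At GPR171 this share differed between times, from 5.29% of its reads in Takara control to 15.1% in heat stress and from 7.62% to 33.1% in Lexogen. The median antisense level went from 2.05 to 5.39 CPM in Takara and from 3.02 to 10.8 CPM in Lexogen, higher in heat in 10 and 9 of 12 pairs, and the groups overlapped. The sense level of GPR171 was lower in heat in 8 of 12 Takara pairs and in 6 of 12 Lexogen pairs. For GPR18 in Lexogen the sense median went from 15.9 to 10.8 CPM and the antisense median from 7.38 to 3.51 CPM. In Takara the GPR18 sense level was higher in heat in 9 of 12 pairs and lower in 3. These values are a description with no test, and the source of the antisense reads was not tested.

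The kits were compared in the control RNA of 12 calves with libraries of both, a contrast that played no part in the choice of the genes. GPR174 was higher in Lexogen, where its median was 553 CPM against 110 CPM in Takara, and Takara was higher in 0 of 12 calves. Levels in CPM are scaled within a kit, while the log2 ratios come from a joint scaling of both kits, so their sizes differ. The log2 ratio, Takara over Lexogen, was -2.53 (SE 0.12, edgeR with calf as block, adjusted p = 1.4e-11), so Lexogen was 5.76-fold higher. P2RY10 and GPR183 went the opposite way in 12 of 12 calves, with log2 ratios of 1.38 (SE 0.20, adjusted p = 9.7e-06 in edgeR) and 1.45 (SE 0.14, adjusted p = 1.3e-07 in edgeR). Their medians were 95.5 CPM in Takara and 31.03 CPM in Lexogen for P2RY10, and 171 and 48.0 CPM for GPR183. The other genes did not pass, with 95% intervals of -0.53 to 0.00 for GPR171, -0.26 to 0.54 for GPR18 and -0.53 to 0.54 for GPR34. Kit differences passed the threshold for 64.2% of all genes tested, and the median ratio of all genes was 0.26, or 0.65 with total counts as library size. GPR18 passed at 0.53 under that scaling.

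**Figure D4:**
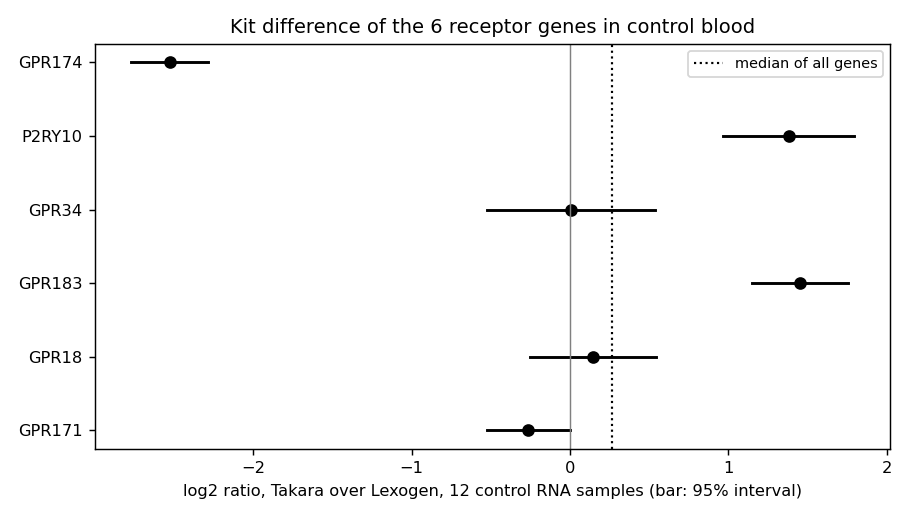
Fitted log2 ratio of each receptor gene, Takara over Lexogen, in the control RNA of 12 calves (points) with 95% intervals (bars). The dotted line marks the median of all genes, 0.26. GPR174 lies at -2.53, P2RY10 at 1.38 and GPR183 at 1.45, and the intervals of GPR34, GPR18 and GPR171 reach or cross 0.

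The difference of the heat change between kits, Takara minus Lexogen with the RNA sample as block, is given as values only, since it rests on the contrast by which the genes were chosen. It was -0.03 for GPR174 (95% interval -0.32 to 0.27) and -0.43 for GPR171 (95% interval -0.81 to -0.05). The intervals were -0.91 to 0.47 for P2RY10, -1.88 to 3.51 for GPR34, -0.46 to 0.42 for GPR183 and -0.38 to 1.05 for GPR18.

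The kits ranked the control calves alike for GPR174. Over 12 calves the log2 levels in the 2 kits had a Pearson r of 0.885 (permutation p = 0.00024, adjusted over 6 genes 0.0014) and a Spearman rho of 0.790 (permutation p = 0.0033, adjusted 0.017). Without the 2 calves farthest from the median r was 0.765, and within the runs it was 0.714 and 0.979, over 6 calves each. GPR171 had r = 0.727 (permutation p = 0.013, adjusted 0.038) and rho = 0.762 (permutation p = 0.0056, adjusted 0.017), with r of 0.511 and 0.942 within runs. Its r fell to 0.403 without its 2 outermost calves, so the size of r depends on them. Leaving them out also narrows the range, and rho was not taken without them. P2RY10 (r = 0.543, rho = 0.594), GPR18 (0.409, 0.455), GPR34 (0.212, 0.102) and GPR183 (0.121, 0.056) did not pass after adjustment in permutation tests, with adjusted p for r of 0.116, 0.272, 0.611 and 0.697.

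Control levels in Takara were also compared between the 2 runs of calves. GPR174 had a mean of 85.0 CPM in run 1 and 135 CPM in run 2, a log2 ratio of 0.67 (95% interval 0.12 to 1.22, adjusted p = 0.119 in edgeR). GPR18 had 34.4 and 25.2 CPM, a log2 ratio of -0.45 (95% interval -0.74 to -0.15, adjusted p = 0.057), and it passed with total counts as library size and on sense reads. None of the 6 genes passed, where 8.13% of all genes did. The runs hold different calves, so run and calf cannot be told apart. As a description of the contrast that chose the genes, the heat change of GPR174 in run 2 minus that in run 1 was -0.52 (95% interval -1.25 to 0.20), and its level was lower in heat in all 6 Takara pairs of each run.

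The genes whose level followed GPR174 most closely over the 26 libraries of each kit were CD84, AFF3, CEBPZ, CAMK4 and ETS1, the top of 10828 genes by the mean of both Pearson coefficients. CD84, an adhesion receptor of the SLAM family on lymphocytes, had r = 0.772 in Takara and 0.839 in Lexogen. AFF3, a nuclear protein gene expressed in lymphoid cells, had 0.874 and 0.706. CEBPZ, a transcription and ribosome factor, had 0.790 and 0.731, CAMK4, a calcium-dependent kinase of T cells, had 0.848 and 0.671, and ETS1, a lymphocyte transcription factor, had 0.800 and 0.694. In Takara AFF3 (-0.61), CEBPZ (-0.58), CAMK4 (-0.74) and ETS1 (-0.59) fell with heat and CD84 (-0.37) did not pass, and in Lexogen none of the 5 passed, with log2 fold changes from -0.68 to -0.29. The libraries share the heat contrast, so these coefficients are a description. The neighbour P2RY10 had r = 0.634 and 0.278 with GPR174, and GPR34 had -0.548 and -0.029.

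The wider pathway, 89 genes in 4 lists of other lipid receptors, P2Y relatives and chromosomal neighbours, ligand enzymes and G protein partners, held more genes that rose with heat than genes that fell. In Takara 21 of 68 genes tested rose and 1 fell, against 18.4% and 10.5% of all genes, and in Lexogen 7 of 57 rose and 0 fell, against 5.09% and 0.459%. The lists were chosen with earlier results of these data known, so their counts, here and below, are a description. The median log2 fold change over the lists was 0.17 in Takara and 0.20 in Lexogen, beside -0.05 and -0.08 for all genes, and the Takara median turned to -0.07 with total counts as library size. With calf as a block, 1 of the 57 Lexogen genes passed in place of 7, the platelet activating factor receptor PTAFR. Without the heat stress library of animal 15, 4 passed in Lexogen. With animal 20 counted as control, 0 passed in either kit in edgeR, with 20 higher and 3 lower in Takara and 12 and 1 in Lexogen at an unadjusted p under 0.05.

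Among other lipid receptors, 8 of 25 rose and 1 fell in Takara, and 3 of 20 rose and 0 fell in Lexogen. PTAFR, which responds to platelet activating factor, went from a mean of 75.6 to 437 CPM in Takara (log2 fold change 2.53, SE 0.45) and from 56.9 to 252 CPM in Lexogen (2.15, SE 0.39). GPR84, a receptor for medium-chain fatty acids on myeloid cells, rose by 2.54 and 2.27, and the prostaglandin E2 receptor gene PTGER4 by 1.59 and 0.94 on the log2 scale. In Takara OXER1 (1.53), the cannabinoid receptor gene CNR2 (1.20) and the sphingosine 1-phosphate receptor genes S1PR1 (1.15) and S1PR4 (1.15) also rose. GPR55, a receptor for lysophosphatidylinositol, was the one that fell in Takara, from 5.51 to 3.34 CPM (-0.71, SE 0.21) and in 11 of 12 pairs, and in Lexogen its log2 fold change was -0.91 (SE 0.47) without passing.

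Of the P2Y family and neighbours, 1 of 10 rose in Takara and 1 of 8 in Lexogen, P2RY12 both times, the ADP receptor of platelets, with 1.73 (SE 0.45) and 1.47 (SE 0.41). Its Takara level spread widely in heat stress (65.7 CPM, SD 98.7, against 19.8, SD 9.18, in control) and was higher in 10 of 12 pairs. Of 3 platelet markers tested 0 passed in edgeR in either kit, with median log2 fold changes of -0.17 and -0.38. Without a filter on low counts 1 of 5 rose in Takara. The host genes did not pass: UBAC2 had -0.15 and 0.18 and MED12L 0.30 and 0.97. Of the ligand enzymes, 1 of 9 rose in Takara, PLA1A, the phospholipase that can make lysophosphatidylserine (1.33, SE 0.34), at a mean of 1.18 CPM in control and 2.96 CPM in heat stress. In Lexogen 0 of 6 passed in edgeR, with 0 at an unadjusted p under 0.05 and 0 called by DESeq2.

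G protein partners held 11 of 24 genes that rose in Takara and 3 of 23 in Lexogen, and 0 fell in either, while 6 rose in Takara with total counts as library size. GNAI2, the inhibitory G protein subunit most used by leukocytes, rose by 0.63 and 0.94, RGS14, which speeds the shut-off of that subunit, by 1.21 and 1.02, and the receptor kinase GRK2 by 1.01 and 1.09. In Takara RGS2 (1.76), ARHGEF11 (1.00), the arrestin gene ARRB2 (0.95) and RGS19 (0.89) also rose. The neutrophil marker sums given above moved with these genes, and their part in the result was not tested.

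**Figure D5:**
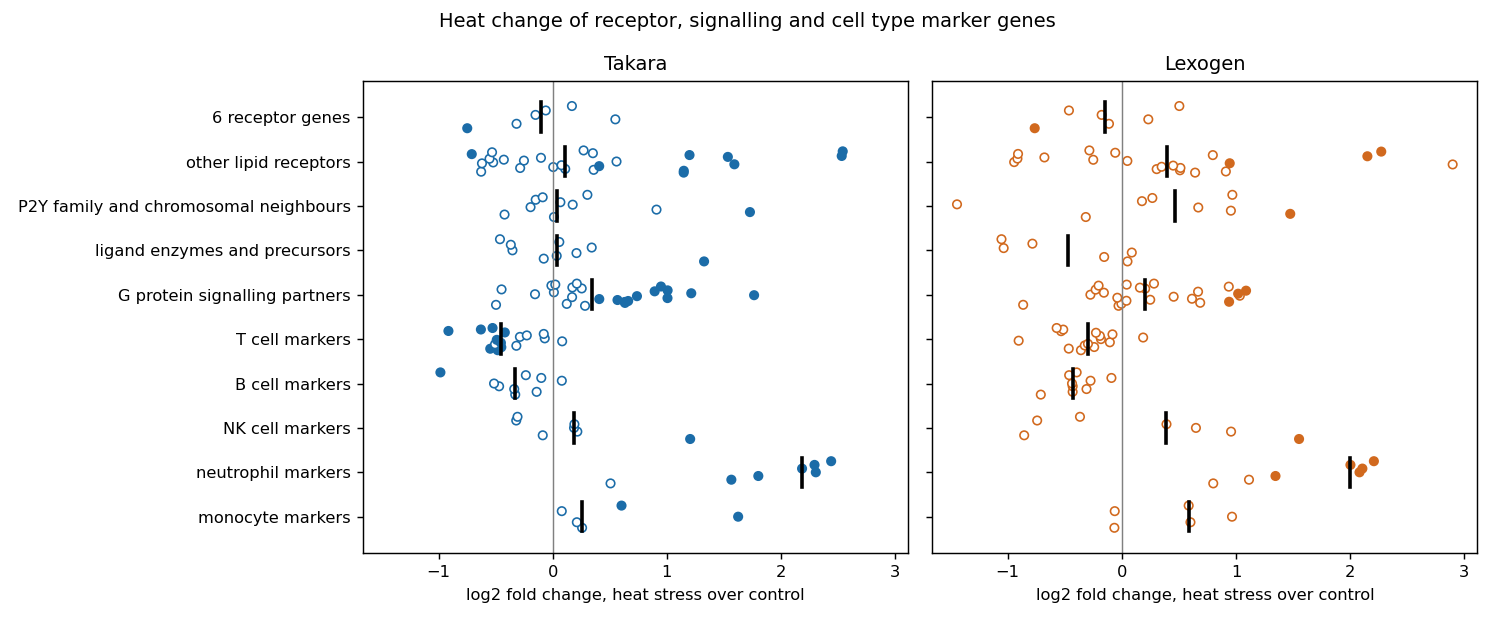
Fitted log2 fold change of each gene tested, heat stress over control, for the 6 receptor genes, the 4 pathway lists and 5 cell type marker lists, in Takara and Lexogen. Filled points passed an adjusted p under 0.05 in edgeR and black bars are list medians. T cell markers centre on -0.45 in Takara and -0.30 in Lexogen and neutrophil markers on 2.18 and 2.002, with GPR174 the lowest of the 6 receptor genes in both kits.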

How the data were processed

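Per the file headers and the study's methods, the authors trimmed forward reads with Trimmomatic (0.39), checked them with FastQC (0.11.9) and MultiQC (1.14), aligned them with STAR (2.7.10b) to the ARS-UCD2.0 genome and deposited raw read counts per gene as unstranded, sense and antisense columns. The unstranded counts were used here, since the column analysed in the study is not named. The 4 totals above the genes were left out. Of 32637 gene IDs, 30271 matched a RefSeq symbol, from which positions came.

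Heat stress was compared with control in each kit with edgeR 4.0.16 in R 4.3.3 (filterByExpr, TMM, quasi-likelihood test of time alone, as in the study's model, Benjamini-Hochberg over all genes, threshold 0.05). All 6 receptor genes passed the filter on low counts in both kits. The kit contrast had calf as a block, and its interaction with heat the RNA sample. Permutation tests used 100000 resamples and were two-sided. Libraries of a group come from separate calves, and 0 pairs of libraries held identical counts. Reads carry no molecular identifiers, so the limits given for counts of 0 cover counting error only. Calf numbers in the labels pair the times. Same-calf deviations correlated above 0.1 in 11 of 12 calves in Takara and 2 of 12 in Lexogen. The steps were tested on simulated data.

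The 6 genes and all lists were chosen with earlier results of these data known. Named were the 6 genes, pathway genes that passed in both kits, the 4 largest absolute log2 fold changes per list and direction among the others that passed in Takara, and the 5 genes most correlated with GPR174. Markers and host genes are given as examples chosen after their values were seen. Alternatives were no filter, total count and RLE scaling, DESeq2 1.42.0, calf as block, sense counts, either time for animal 20, each run alone, a pseudocount of 2.0 and leaving out the Lexogen library of animal 15.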

Additional observations from a re-analysis of the deposited data

How the results depend on the processing

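The heat changes of the 6 genes moved by less than the spread between calves under every alternative run. That spread was wide, up to an SD of 2.26 for GPR34 in Lexogen, so it is a loose yardstick. The sign of GPR171 and the call of GPR174 did change under some alternatives, as given above. With calf as a block (replicate block), GPR174 was -0.70 in Takara and -0.77 in Lexogen, and 1 pathway gene passed in Lexogen in place of 7, while the Takara count was 21 in place of 22. The block moved no other call of the 6 genes. With animal 20 counted as control, 0 pathway genes passed in either kit in edgeR, though 20 were higher and 3 lower at an unadjusted p under 0.05 in Takara and 12 and 1 in Lexogen, and over all Takara genes 0 passed with 3804 at an unadjusted p under 0.05. DESeq2 was not run with that assignment. Run 2 alone, with fewer samples, gave 10 pathway genes in Takara and 0 in Lexogen (9 higher and 2 lower unadjusted). Without a filter on low counts Lexogen gave 16, and without the heat stress library of animal 15 it gave 4.

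With total counts as library size the kit ratio was 0.53 for GPR18, which then passed, and 0.12 for GPR171, a reversed sign. The run ratio of GPR18 was -0.57 with total counts and -0.57 on sense reads and passed in both, the run by heat interaction of GPR171 was 0.11, and the kit agreement of GPR171 dropped to r = 0.710 (permutation test, adjusted p = 0.057). On sense reads the kit ratio was 0.68 for GPR18, which passed, and -0.039 for GPR34, and the kit by heat interaction was 0.082 for GPR174 and 0.13 for GPR183. Without a filter the run by heat interaction of GPR171 was 0.040. The cause was not tested. RLE scaling and DESeq2 changed no call of the 6 genes. Fitted changes over all genes had a median SE of 0.18 in Takara and 0.42 in Lexogen.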

Other observations

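The 2 libraries of animal 20 enter no comparison. Their levels come from a scaling that included them, while the ranges of the other libraries come from a scaling without them. GPR174 was at 27.7 CPM in its Takara library and 82.4 CPM in its Lexogen library, below every control and every heat stress library of the kit. P2RY10 was at 47.7 CPM in Takara, also below every other library (lowest 50.7 CPM, in heat stress), and at 10.6 CPM in Lexogen. GPR183 was at 118.9 and 25.3 CPM, GPR18 at 22.5 and 12.9 CPM, GPR171 at 52.4 and 58.0 CPM and GPR34 at 0.973 and 0.939 CPM, in Takara and Lexogen in turn. Of these, GPR183 in Lexogen lay below both groups and the others lay within the range of at least 1 of them.

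GPR82, a gene beside GPR34 within the span of CASK, was singled out after its values were seen. Its log2 fold change was 0.07 (SE 0.31) in Takara, with 8 of 12 pairs lower, and -1.44 (SE 0.62) in Lexogen, with 10 of 12 pairs lower, and it passed in neither.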
